A study of Homo sapiens with 6 samples.

Results

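Antigen presentation genes were examined in OCM1A cells, a human melanoma line that the labels describe as uveal in origin, after separation into cells positive and negative for ABCB1. The set was given as 10 Illumina probes, each paired with a gene: B2M, HLA-B, HLA-E and HLA-F (class I molecules), TAP1, PSMB8 and PSMB9 (peptide supply to class I) and HLA-DRA, CD74 and HLA-DMA (class II molecules and their assembly). Of these, 6 probes were present among the 24526 of the array table, those for HLA-E (ILMN_1765258), TAP1 (ILMN_1751079), PSMB8 (ILMN_1767006), PSMB9 (ILMN_2376108), HLA-DMA (ILMN_1695311) and CD74 (ILMN_2379644), and the platform annotation gave the same gene for each of the 6. The probes listed for B2M, HLA-B, HLA-F and HLA-DRA were not analysed here. Other probes of B2M, HLA-F and HLA-DRA were found through the annotation, so that 9 of the 10 genes had at least 1 measured probe. ABCB1 (P-glycoprotein) is a membrane pump that exports drugs. Both fractions came from the same line in the same serum-supplemented medium, were labelled with a commercial MDR1 shift assay and sorted by flow cytometry, and 3 arrays were made per fraction from 3 independent assays. All values therefore describe 1 cell line.

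Class I molecules display peptides from proteins made inside the cell to cytotoxic T cells. The peptides are cut by the proteasome, whose interferon-inducible form carries the catalytic subunits PSMB8, PSMB9 and PSMB10, and are moved into the endoplasmic reticulum by the TAP1/TAP2 transporter. Class II molecules display peptides from the endosomal route to helper T cells, are chaperoned by the invariant chain CD74 and loaded with the help of HLA-DM, and are made by specialised antigen-presenting cells but also by some melanomas. The transactivator CIITA with the RFX factors drives class II genes, NLRC5 and IRF1 act on class I genes, and interferon gamma raises both groups.

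Start regions of TAP1, the inducible proteasome subunits, HLA-DMA and CD74 are shown because interferon-responsive genes commonly carry an interferon-stimulated response element (ISRE) there and class II genes an X-Y module. Each line gives 250 bases before and 20 after the annotated start from RefSeq (GRCh38.p14), 5′ to 3′ on the gene's strand, and capitals mark matches on either strand to the ISRE (GAAA, then NN, then GAAA), the Y box GATTGG or the X2 box core TGACG.
TAP1 (chr6:32853685-32853954, minus strand): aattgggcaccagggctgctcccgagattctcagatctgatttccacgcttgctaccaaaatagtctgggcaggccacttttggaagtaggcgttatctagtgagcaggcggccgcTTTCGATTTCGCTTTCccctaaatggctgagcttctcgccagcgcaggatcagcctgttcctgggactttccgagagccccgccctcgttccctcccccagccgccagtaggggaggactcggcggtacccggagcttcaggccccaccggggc
PSMB9 (chr6:32853942-32854211, plus strand): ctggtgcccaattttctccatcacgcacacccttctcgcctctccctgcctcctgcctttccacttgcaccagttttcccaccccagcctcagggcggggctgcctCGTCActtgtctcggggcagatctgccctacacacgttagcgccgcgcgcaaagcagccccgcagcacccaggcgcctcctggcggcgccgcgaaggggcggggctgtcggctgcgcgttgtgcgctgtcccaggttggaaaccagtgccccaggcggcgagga
PSMB8 (chr6:32844028-32844297, minus strand): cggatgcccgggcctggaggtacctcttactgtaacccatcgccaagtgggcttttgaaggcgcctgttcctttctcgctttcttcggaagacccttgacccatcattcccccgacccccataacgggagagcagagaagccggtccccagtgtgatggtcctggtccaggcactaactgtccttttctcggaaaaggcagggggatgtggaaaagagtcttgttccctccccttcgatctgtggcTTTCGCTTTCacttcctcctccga
PSMB10 (chr16:67936831-67937100, minus strand): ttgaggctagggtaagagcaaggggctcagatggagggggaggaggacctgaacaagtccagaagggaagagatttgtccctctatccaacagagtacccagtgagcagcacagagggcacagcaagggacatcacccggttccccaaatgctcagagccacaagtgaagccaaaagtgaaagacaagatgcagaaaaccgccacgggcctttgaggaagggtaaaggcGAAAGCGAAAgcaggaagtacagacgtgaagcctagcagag
HLA-DMA (chr6:32953078-32953347, minus strand): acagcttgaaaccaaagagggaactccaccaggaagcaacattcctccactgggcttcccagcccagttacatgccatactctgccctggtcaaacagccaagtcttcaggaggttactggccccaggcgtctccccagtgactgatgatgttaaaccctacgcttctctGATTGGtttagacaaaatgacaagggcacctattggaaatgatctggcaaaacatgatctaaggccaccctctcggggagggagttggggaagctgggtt
CD74 (chr5:150412891-150413160, minus strand): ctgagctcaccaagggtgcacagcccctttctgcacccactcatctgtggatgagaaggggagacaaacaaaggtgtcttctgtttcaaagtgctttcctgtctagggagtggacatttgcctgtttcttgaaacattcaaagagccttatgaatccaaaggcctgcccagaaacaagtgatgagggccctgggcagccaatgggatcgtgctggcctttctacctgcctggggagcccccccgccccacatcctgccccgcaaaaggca

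Windows of this length numbered 35116 in the RefSeq table, and 3.3% held the ISRE, 14.5% the Y box and 22.9% the X2 core. TAP1 and PSMB9 are transcribed away from each other, with 487 bases between the annotated starts, and the windows shown share 13 bases. The ISRE matches began 134 and 128 bases before the TAP1 start (overlapping each other), 4 before the PSMB8 start shown and 21 before the PSMB10 start. The PSMB8 match therefore runs across the start. PSMB9's window held an X2 core and no ISRE, HLA-DMA's a Y box, and CD74's none of the 3 motifs. The TAP1 ISRE matches lie between the TAP1 and PSMB9 starts, but outside the PSMB9 window. TAP1 and PSMB8 each had 2 annotated starts. The window not shown held no match for TAP1 and an X2 core for PSMB8. Among the other genes of the set, B2M held 2 overlapping ISRE matches, a Y box and an X2 core, HLA-F an ISRE and a Y box, and HLA-B a Y box and an X2 core. Windows of HLA-E and HLA-DRA were not analysed here, leaving 8 of the 10 genes of the set. A match describes the letters alone.

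The labels were checked first. The ABCB1 probe gave deposited signals of 408, 514 and 188 in positive replicates 1 to 3 against 78.4, 72.0 and 99.0 in the negative ones. The difference on the log2 scale was 1.58 ± 0.20 (SE; adjusted p = 0.00198 in limma), and positive replicate 3 was the lowest of its group. The melanocytic genes PMEL, MLANA, TYR, TYRP1 and SOX10 were detected on all 6 arrays, as was MITF by 2 of its 3 probes, while S100B was detected on none. Of 12 probes for leukocyte genes, 8 were detected on no array, including all 3 of PTPRC, the pan-leukocyte antigen. The summed signal of the 12 ranged from 710 to 1449 in positive and from 846 to 1061 in negative arrays, most of it from CD68 and CD14. Among epithelial and endothelial genes, EPCAM, PECAM1 and a KRT18 probe were detected on all 6 arrays. Their mean signals were 59.7, 53.6 and 177 in positive and 61.9, 45.6 and 210 in negative cells. KRT8, VWF and the other KRT18 probe were detected on no array. The arrays detected between 12846 and 13183 probes each, and 13186 probes passed the filter (detection p under 0.05 on at least 3 of the 6 arrays) and were tested with the replicate number as a block.

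Of the 6 probes of the set, 5 were detected on all 6 arrays and tested, and PSMB9 alone passed an adjusted p under 0.05. It was higher in ABCB1-positive cells. In RNA from a sorted fraction, more cells carrying a transcript and more transcript per cell cannot be told apart. Over all tested probes, 20.3% were called, 11.1% higher and 9.21% lower, so 1 of 5 is no more than the background of this comparison. Without the block 0 of the 5 were called, none had an unadjusted p under 0.05, and 5.14% of all tested probes were called. No tested probe of the set had its 3 positive values all on one side of the 3 negative ones, against 14.8% of all tested probes above and 12.3% below. The median log2 difference was -0.03 over the 5 and -0.02 over all 13186.

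**Figure D1:**
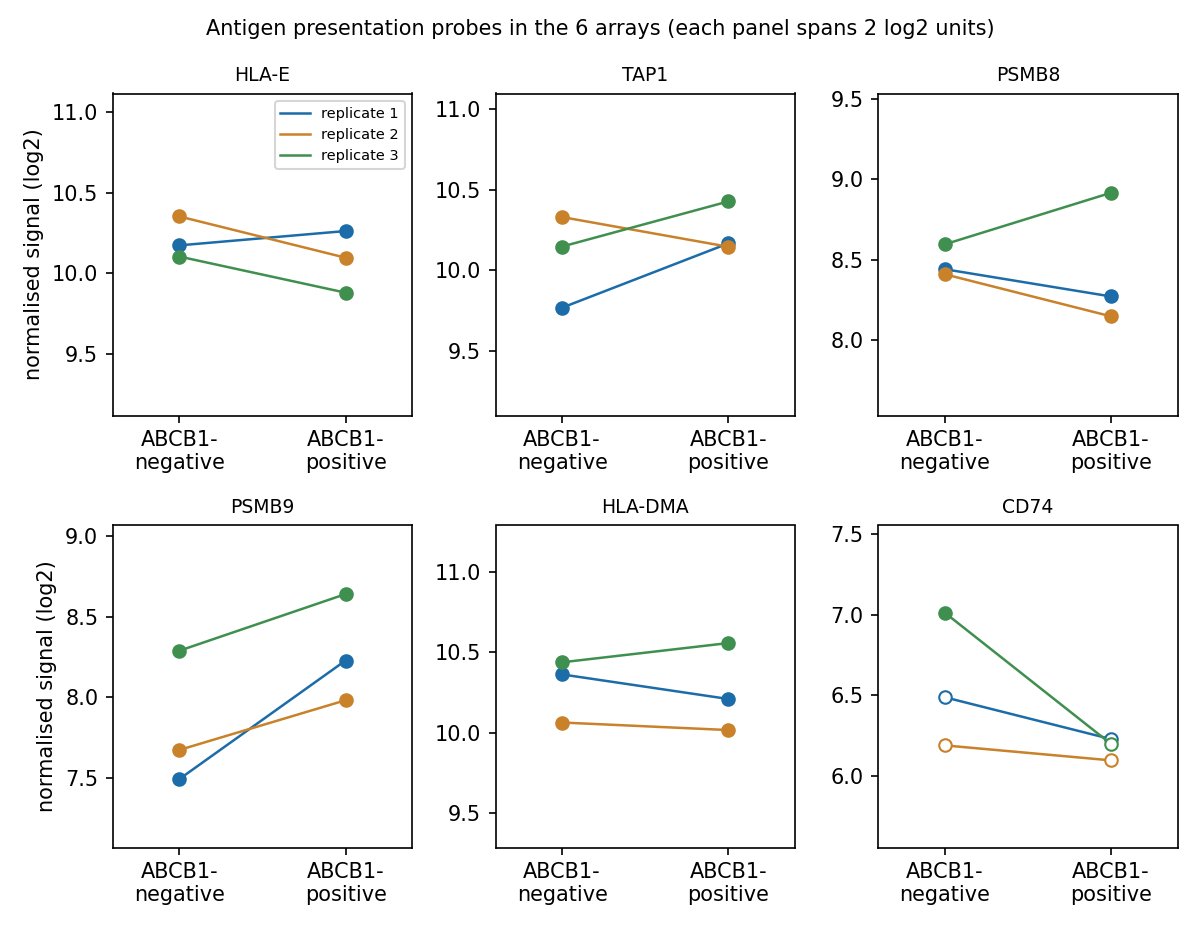
Normalised log2 signal (vertical axis) of the 6 probes in ABCB1-negative and ABCB1-positive cells, with a line joining the arrays of each replicate number; filled circles are detected (p under 0.05), open circles are not. All 3 lines rise for PSMB9, by 0.74, 0.31 and 0.35, whereas the lines cross or run in both directions for HLA-E, TAP1, PSMB8 and HLA-DMA.

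HLA-E, a class I molecule of limited variation that is read by natural killer cells, had normalised log2 levels of 10.26, 10.10 and 9.88 in positive replicates 1 to 3 and 10.17, 10.35 and 10.10 in negative ones. The groups overlapped, and the paired differences had both signs. The log2 difference was -0.13 ± 0.12 (SE, limma adjusted p = 0.477).

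Other class I molecules were read through probes outside the rule. B2M, the light chain shared by all class I molecules, was among the bright probes, at 12.67, 12.69 and 12.79 in positive and 12.90, 12.98 and 12.96 in negative replicates. The 3 positive values lay below the 3 negative ones, yet the log2 difference of -0.23 ± 0.11 (SE) did not pass (limma adjusted p = 0.167). HLA-F gave 0.14 ± 0.13 (limma adjusted p = 0.506), HLA-G 0.14 ± 0.11 (adjusted p = 0.388) and the pseudogene HLA-H 0.05 ± 0.12 (adjusted p = 0.811), with SE given after each value. These loci are closely related in sequence, so signals of HLA-F, HLA-G and HLA-H may hold transcripts of one another. The single HLA-C probe was detected on no array.

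PSMB9, the immunoproteasome subunit also called LMP2, had normalised log2 levels of 8.23, 7.98 and 8.64 in positive replicates 1 to 3 and 7.49, 7.67 and 8.29 in negative ones. Negative replicate 3 lay above positive replicates 1 and 2, and each positive array lay above the negative array of its own number. The log2 difference was 0.47 ± 0.13 (SE), or 1.38-fold, with a limma adjusted p of 0.0365 with the block and 0.324 without it. The call rested on replicate 1: without it the difference was 0.33 with an adjusted p of 0.323. A second PSMB9 probe was detected on no array.

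The probe of the set for PSMB8, the subunit LMP7, read 8.27, 8.15 and 8.92 in positive and 8.44, 8.41 and 8.60 in negative replicates, which differed by -0.04 ± 0.14 (SE, limma adjusted p = 0.876). The 3 other PSMB8 probes are annotated to a different transcript of the gene, and the 4 probes did not give the same answer. ILMN_1747195 read 8.34, 8.31 and 8.81 in positive and 7.69, 7.82 and 8.27 in negative replicates, with no overlap. Its log2 difference of 0.56 ± 0.11 (SE) was called (limma adjusted p = 0.0105 with the block, 0.162 without). ILMN_2390299, the brightest, differed by 0.49 ± 0.12 (SE, limma adjusted p = 0.0281 with the block, 0.316 without). ILMN_2284794, near the detection limit, differed by 0.17 ± 0.12 (SE, limma adjusted p = 0.345). The difference between the probes was not tested.

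PSMB10, another immunoproteasome subunit, came from the list of other pathway genes and showed the clearest rise. Its normalised log2 levels were 12.32, 12.07 and 12.00 in positive replicates 1 to 3 and 11.22, 11.22 and 10.85 in negative ones. The groups did not overlap, and every pair differed by at least 0.85. The log2 difference was 1.03 ± 0.12 (SE), or 2.05-fold, with a limma adjusted p of 0.00142 with the block and 0.0135 without it. The PSMB9 probe and 2 of the 4 PSMB8 probes were also called higher with the block, against 11.1% of all tested probes, whereas the PSMB8 probe of the set, at -0.04, was not. With the number as a random block, PSMB9 (limma adjusted p = 0.0718) and PSMB8 ILMN_2390299 (0.0644) were not called. The activator subunits PSME1 and PSME2 differed by 0.17 ± 0.11 and 0.25 ± 0.13 (SE) and were not called (limma adjusted p = 0.3 and 0.199).

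TAP1, a chain of the peptide transporter, read 10.17, 10.15 and 10.43 in positive and 9.77, 10.33 and 10.15 in negative replicates. Pair 2 ran opposite to pairs 1 and 3, and the log2 difference of 0.16 ± 0.14 (SE) was not called (limma adjusted p = 0.435). Its start region adjoins that of PSMB9, shown above, whose probe was called. The partner chain TAP2 was not called by either of its probes, at -0.29 ± 0.15 and -0.12 ± 0.23 (SE, limma adjusted p = 0.203 and 0.747).

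The other class I pathway genes were a list of 18, of which 16 had a probe. Of their 21 probes 16 were tested, and 1 was higher (PSMB10) and 1 lower (CANX), against 11.1% higher and 9.21% lower among all tested probes. CANX, which encodes calnexin, a chaperone that holds newly made class I heavy chains, fell by 0.45 ± 0.13 (SE) on the log2 scale (limma adjusted p = 0.0434 with the block, 0.193 without). TAPBP (tapasin, which bridges class I and TAP) differed by 0.38 ± 0.14 in its bright probe (SE, limma adjusted p = 0.0953). Its other tested probe, ILMN_1782851, was dim and detected on the negative arrays alone, so it entered the test only through that group. With undetected values raised to the lowest detected signal of their array, its negative mean was at least 1.08-fold the positive one. No p-value is given for it. CALR (calreticulin) differed by 0.30 ± 0.13 (SE, limma adjusted p = 0.128) and the trimming peptidase ERAP2 by 0.32 ± 0.15 (SE, limma adjusted p = 0.184). NLRC5 was detected on no array, and IRF1 differed by -0.14 ± 0.13 (SE, limma adjusted p = 0.49). The median over the 16 tested probes was 0.06, with the TAPBP probe ILMN_1782851 counted among the 16 although its positive values were undetected.

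**Figure D2:**
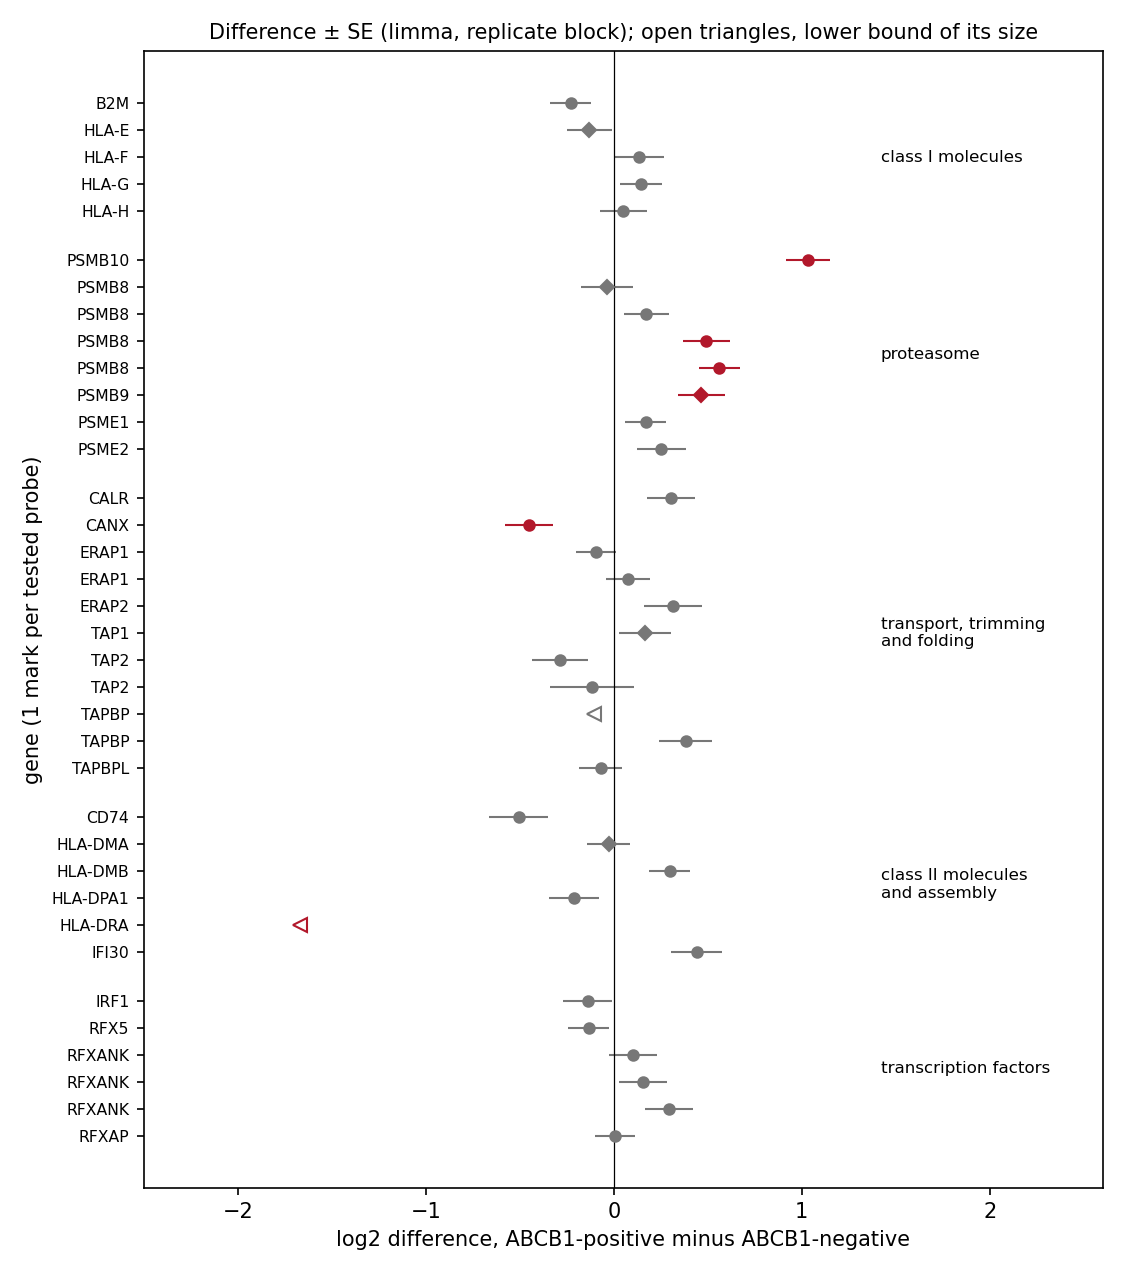
Log2 difference between ABCB1-positive and ABCB1-negative cells (horizontal axis; bars, SE from limma with the replicate block) for each tested antigen presentation probe, 1 mark per probe, grouped by role; diamonds are probes of the set, open triangles give the lower bound of the difference for probes detected on no positive array, and red marks an adjusted p under 0.05. PSMB10 stands at 1.03, the HLA-DRA triangle marks a negative mean at least 3.18-fold the positive one, and most other marks lie within 0.5 of 0. The red of the HLA-DRA triangle is not read as a result, because that probe entered the test only through the negative arrays.

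Of the class II genes of the set, HLA-DMA alone had its listed probe tested. HLA-DMA, a chain of the peptide loader HLA-DM, was bright, at 10.21, 10.02 and 10.56 in positive replicates 1 to 3 and 10.36, 10.06 and 10.44 in negative ones. The groups overlapped almost entirely, and their means differed by -0.03 ± 0.11 on the log2 scale (SE, limma adjusted p = 0.89). Its partner chain HLA-DMB differed by 0.30 ± 0.11 (SE) and was higher in all 3 pairs without passing the test (limma adjusted p = 0.0901).

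The CD74 probe of the set, ILMN_2379644, had deposited signals of 1.59, -4.19 and 0.293 in positive replicates 1 to 3 and 16.8, -0.205 and 76.5 in negative ones. It was detected on negative replicate 3 alone and was therefore not tested. With all 24526 probes kept, its log2 difference was -0.39 with a limma adjusted p of 0.152. A second CD74 probe, ILMN_1736567, was detected on every array, with deposited signals of 50.8, 34.7 and 43.6 in positive and 95.4, 47.6 and 220 in negative replicates. It was near the detection limit in positive cells: at a detection p under 0.01 it was detected on 0 positive and 2 negative arrays. The negative signal lay above the positive one in all 3 pairs, although negative replicate 2 lay below positive replicate 1. After normalisation the log2 levels were 6.92, 6.86 and 6.95 in positive and 7.41, 6.97 and 7.87 in negative replicates, which did not overlap but nearly touched. The log2 difference was -0.51 ± 0.16 (SE), just short of the threshold (limma adjusted p = 0.0573 with the block, 0.228 without). The remaining CD74 probe was detected on no array.

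HLA-DRA, the alpha chain of the class II molecule HLA-DR, was read by the probe ILMN_2157441, which had deposited signals of 188, 69.5 and 1004 in negative replicates 1 to 3, and of 5.94, 3.97 and 13.9 in positive ones. Every negative array detected it and no positive array did, so it entered the test only through the group where it is high. The negative mean was at least 3.18-fold the positive one, with undetected values raised to the lowest detected signal of their array. No p-value is given for this probe, because its positive values are undetected and its entry depended on the negative group. The negative arrays themselves spread widely, by 1.24 on the log2 scale (SD, n = 3). Replicate 3 set much of the bound, which was 1.98-fold without it.

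**Figure D3:**
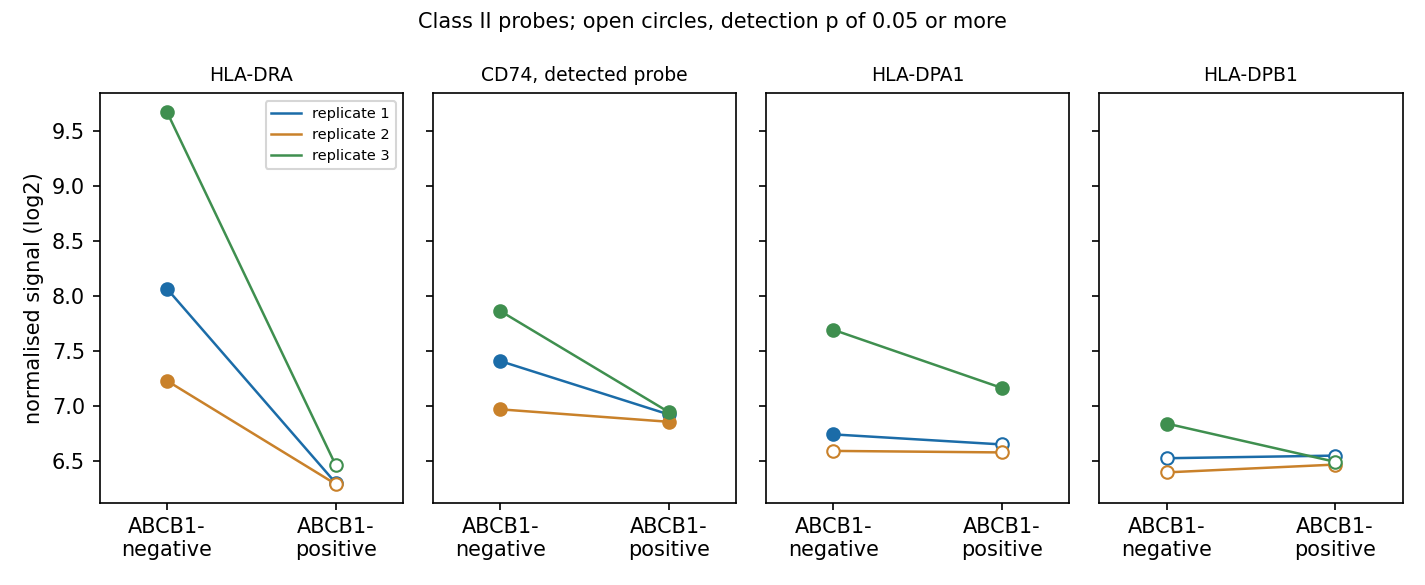
Normalised log2 signal (vertical axis) of 4 class II probes in ABCB1-negative and ABCB1-positive cells, lines joining replicate numbers; open circles, detection p of 0.05 or more. HLA-DRA is detected in the negative arrays, at 8.07, 7.23 and 9.67, and in no positive array, and negative replicate 3 is the highest array for all 4 probes. The 4 are a selection, each with a lower mean in positive cells, and HLA-DPB1 was not tested. Not shown are HLA-DMB and IFI30, whose log2 differences of 0.30 and 0.44 run the other way, and HLA-DMA, at -0.03.

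Of the 16 other class II pathway genes on the list, 15 had a probe and 18 probes were measured, 9 of which were detected on no array. These 9 included the only probes for HLA-DRB1, HLA-DRB3, HLA-DRB4, HLA-DQB1, CTSS and CIITA. Of the 8 tested probes none was called in limma with the block, against 20.3% of all tested probes, and 2 had an unadjusted p under 0.05, both higher. IFI30, a lysosomal thiol reductase, differed by 0.44 ± 0.13 (SE, limma adjusted p = 0.0532) and was higher in all 3 pairs, and HLA-DMB was the other. HLA-DPA1 had deposited signals of 29.4, 18.1 and 60.95 in positive and 33.6, 21.2 and 185 in negative replicates, and differed by -0.21 ± 0.13 (SE, limma adjusted p = 0.295). RFX5 differed by -0.13 ± 0.11 in its detected probe (SE, limma adjusted p = 0.405). The median over the 8 was 0.13.

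The arrays numbered 3 were high for much of this pathway in both fractions. PSMB9 in positive replicate 3 exceeded the mean of positive replicates 1 and 2 by 0.54 on the log2 scale, and in negative replicate 3 the excess was 0.71. For IRF1, an interferon-induced transcription factor, the excesses were 1.06 and 0.66. Of the 5 tested probes of the set, 3 (PSMB8, PSMB9 and HLA-DMA) were highest in replicate 3 of both fractions, as were 16 of 31 other tested probes of these genes and the pathway lists, against 17.9% of all tested probes. The 16 include several probes of PSMB8. They also include HLA-DRA and the TAPBP probe ILMN_1782851, whose order among the positive arrays is one of undetected values. HLA-E ran the other way, with differences of -0.30 in positive and -0.16 in negative replicate 3. So did PSMB10 (-0.20 and -0.37), CANX (-0.52 and -0.13) and the brighter TAP2 probe (-0.62 and -0.25). The ERAP1 probe ILMN_2336220 (-0.05 and -0.04) was also lower in replicate 3 of both fractions. TAPBPL in replicate 3 lay below the mean of replicates 1 and 2 in both (-0.11 and -0.31), but its positive replicate 3 lay above positive replicate 2. These differences from the mean are a looser measure than being the highest or lowest array. HLA-DRA was higher in negative replicate 3 by 2.02, and was detected on no positive array. What set the arrays numbered 3 apart was not tested.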

How the data were processed

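The authors deposited 1 table of signal intensity values with a detection p-value beside each, per the file headers, for 6 1-colour Illumina arrays. The deposited intensity values are linear and partly negative, which points to background subtraction before deposit; how that was done, and on which scanner, is not given in the labels or headers. A second deposited table held the same intensities multiplied by 1 constant per array, giving every array a mean of 787. Genes were named by the pairs given with the set and, for other probes, by the platform annotation, which named 21834 probes with 1 gene each.

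Signals were corrected with normexp (offset 50, which compresses differences of dim probes), quantile normalised and taken to log2 (limma 3.58.1, R 4.3.3). Probes detected at p under 0.05 on at least 3 of 6 arrays (13186) entered a two-sided limma fit (lmFit, eBayes) with the replicate number as a block and Benjamini-Hochberg adjustment over all of them. Log2 differences are positive minus negative. The comparison was specified as paired by replicate number, and the design text attributes the samples to 3 assays. Deviations from the group means correlated at r = 0.48, 0.64 and 0.48 for equal numbers. P-values reflect only variation among assays of 1 line, and 3 arrays per group limit the precision. The procedure was tested on simulated data with known changes in 200 of 13186 probes. It recovered 99.9% of changes of 2 on the log2 scale, 93.1% of changes of 1 and 11% of changes of 0.5, and 4.67% of calls were false. Far more probes, 2681, were called in the data, which changes the cut-off of the adjustment, so these shares cannot be carried over to this comparison. A probe not called here may still differ by about 0.5: the second CD74 probe, at -0.51, was not called, whereas PSMB9, at 0.47, was.

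All 10 genes of the set are named. The members and lists were chosen with earlier results of these data known. Other probes of the same genes were added after seeing which were present. Alternatives covered the block, background, scaling, filter, variance prior, array weights, threshold and each replicate left out.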

Additional observations from a re-analysis of the deposited data

How the results depend on the processing

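PSMB9 kept its direction in all 16 alternatives to its fit and was called in 9 of them, with limma adjusted p from 0.00114 to 0.324. The number of probes of the set called was 1 in the reported fit and 0 with no replicate block, a random block, no background correction, median scaling, cyclic loess, the deposited mean-scaled values or an adjusted p under 0.01. It was 2 with array weights, where TAP1 joined (limma adjusted p = 0.049), and 0 to 1 when a replicate number was left out, 0 being without replicate 1. All calls were higher, none lower. At a detection p under 0.01 the same number of probes of the set, 5, was detected on all 6 arrays. Among other probes, PSMB10 was called in all 16 alternatives, the PSMB8 probes ILMN_1747195 and ILMN_2390299 in 12 and 9 of 16, and CANX in 4 of 16. The second CD74 probe passed in 7 of 16.

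Over all tested probes, 2681 were called, 1467 higher and 1214 lower. Without the replicate block the counts were 678, 461 and 217, with median scaling 1348, 763 and 585, with array weights 5509, 2724 and 2785, and at an adjusted p under 0.01 they were 1069, 673 and 396. Leaving out a replicate number gave 1356 to 2727 in all, 871 to 1432 higher and 485 to 1295 lower. The lower calls were 787 with no background correction and 1918 at an adjusted p under 0.1. With the deposited mean-scaled values 841 were higher and 1227 lower, and there the median of all tested probes moved to -0.15, so PSMB9's 0.49 stands against that shift. The cause of these changes was not tested. The second CD74 probe, dim but detected on all arrays, moved from -0.51 to -0.65 at offset 16, to -0.80 under neqc and to -0.99 when background was left uncorrected. HLA-DRA, undetected in positive cells, is given as a bound of 3.18-fold, which was 1.98-fold to 4.68-fold when a replicate number was left out. No call is read for it under any setting.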
